A study of Mus musculus with 24 samples.

Results

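The genes described here encode the proteins of the mitochondrial ribosome. They were chosen by symbol, as every protein-coding gene named Mrpl or Mrps and a number, and 78 of the 21755 genes in the p16-3MR liver table met that rule: 49 of the large subunit (Mrpl) and 29 of the small subunit (Mrps). The wild-type table prints its gene names without 9 of the lower-case letters, among them l and s, so that a label such as Mrp10 can stand for Mrpl10 or Mrps10. Only 36 members, 28 large and 8 small, fitted 1 of its 12643 labels with no other candidate, and the other 42 members share 21 ambiguous labels and were not used there.

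Liver RNA was measured by Smart-3SEQ, which counts the 3′ ends of transcripts, in 3 mice per sex, genotype and treatment. All p16-3MR mice carried 3MR, a reporter and suicide-gene transgene under p16Ink4a control on a bacterial artificial chromosome. Its herpes simplex virus thymidine kinase makes ganciclovir (GCV) toxic to the cells that express it. From 16 to 18 months of age the p16-3MR mice received GCV or the vehicle (VEH, pH11 water) intraperitoneally on 5 days of every month, and the study's methods place the harvest at about 28 months. Wild-type (WT) mice, which lack the transgene, received the same agents from 6 months of age for 3 months and test GCV without its target. The labels give the GCV dose as 150 mg/kg and the methods as 25 mg/kg. The p16-3MR libraries are batch 1 and the WT libraries batch 2, so genotype, age, length of treatment and batch cannot be told apart and no test between genotypes was made.

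Mitochondria translate their own few messages on a ribosome of their own. Its RNAs come from mitochondrial DNA, whereas all of its proteins are encoded in the nucleus, made in the cytosol and imported. The large subunit forms the peptide bond and holds the exit tunnel, and the small subunit decodes the message. Every product of this ribosome is a membrane subunit of the respiratory chain or of ATP synthase, and hepatocytes are rich in mitochondria. Some proteins descend from bacterial ribosomal proteins and others have no bacterial counterpart. The prefix is not a perfect guide to place: the proteins of Mrps18a and Mrps30 sit in the large subunit, and that of Mrps36 belongs to a dehydrogenase complex of the tricarboxylic acid cycle.

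Before any comparison, 3 p16-3MR libraries stood apart. Liver 33, a GCV-treated female, had 64.0% of its counts on mitochondrially encoded genes, against at most 22.4% in the other 11 livers, and gave 2004 member counts where the others gave 9247 to 13132. Livers 24 (VEH-treated male) and 32 (GCV-treated male) had the lowest hepatocyte marker levels, with the 10 markers summing to 41168 and 25058 CPM (reads scaled to a common library size) against 82795 to 157416 in the other 10 livers. All 10 hepatocyte markers were detected in every liver. Total counts ran from 5005760 to 7160172 per p16-3MR liver and from 3084517 to 5667904 per WT liver. All 78 members had a mean of at least 10 counts, and only Mrpl44 and Mrps6 were at 0 counts in any liver, both in liver 33, where 3 counts correspond to 2.32 CPM. Levels below are CPM divided by TMM factors, which scale each library to the bulk of its genes.

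The first question was how much of this RNA each liver held. In p16-3MR females the summed level of the 78 members was 2294, 1548 and 2081 CPM with GCV (livers 31, 33 and 35) and 1641, 1338 and 1457 CPM with VEH (livers 27, 28 and 29). Livers 31 and 35 lay above all 3 VEH females, and liver 33 lay inside their range. In males the sum was 1539, 1085 and 2523 CPM with GCV (livers 30, 32 and 34) and 1218, 1885 and 1621 CPM with VEH (livers 24, 25 and 26). The treated males thus spanned the whole range of the 12 livers, with liver 34 the highest and liver 32 the lowest. Group means were 1974 ± 384 (females, GCV), 1478 ± 153 (females, VEH), 1716 ± 735 (males, GCV) and 1575 ± 336 CPM (males, VEH; SD, n = 3 each).

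**Figure D1:**
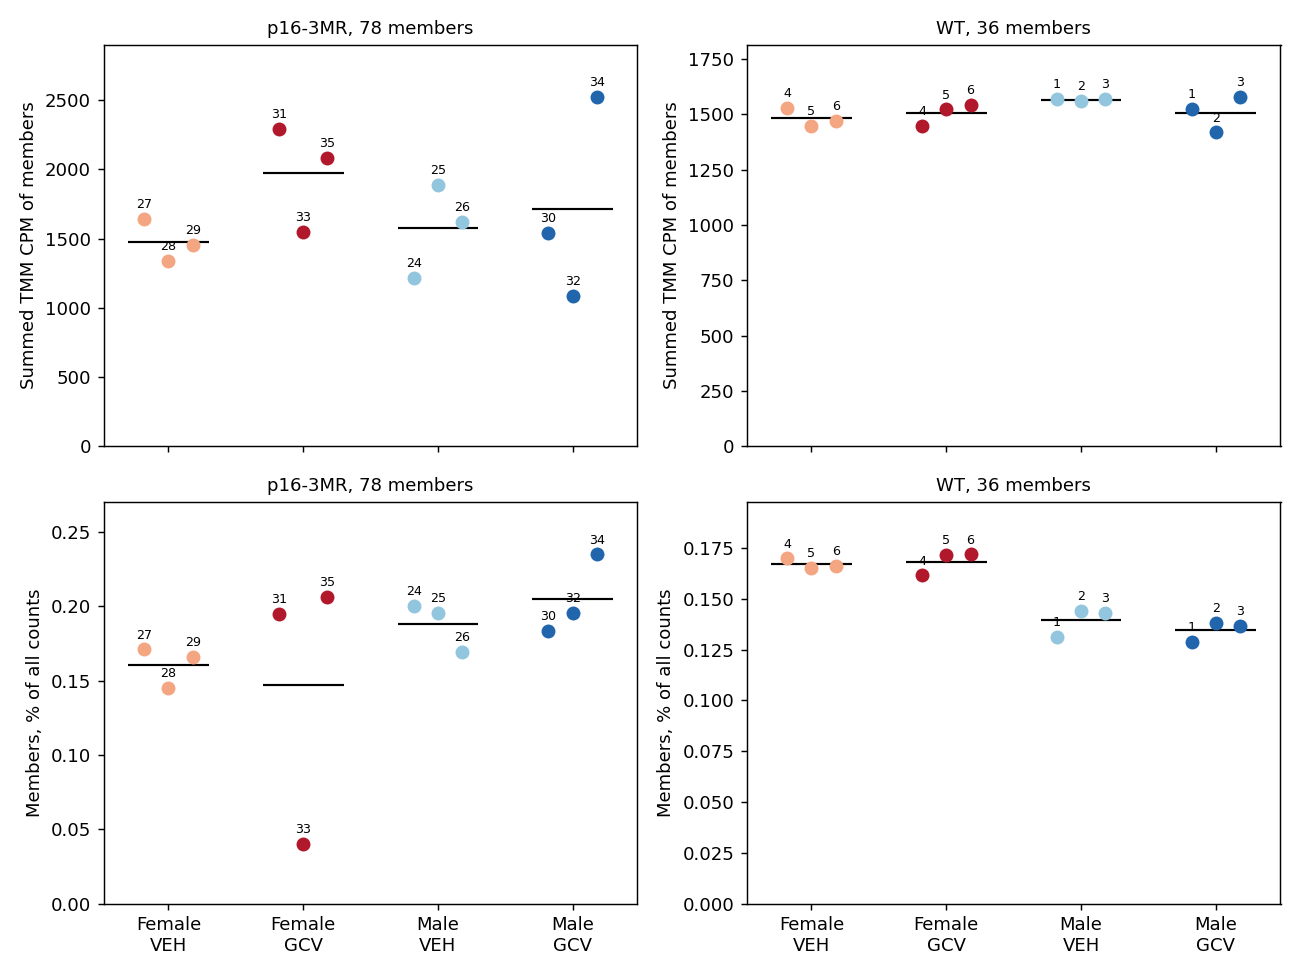
Summed level of the members in each liver, as TMM-scaled CPM (upper row) and as a percentage of all counts (lower row), for 78 members in p16-3MR livers (left) and 36 members in WT livers (right). Points are livers with their numbers and bars are group means; p16-3MR sums run from 1085 to 2523 CPM and WT sums from 1419 to 1579 CPM.

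The subunits were also summed separately. Large-subunit members summed to 1498, 1057 and 1343 CPM in GCV-treated females and to 1046, 865 and 951 CPM in VEH-treated females, so that here all 3 treated livers exceeded all 3 controls. Small-subunit members summed to 796, 491 and 738 CPM with GCV and to 595, 473 and 506 CPM with VEH, with liver 33 among the controls. The highest member of the large subunit by mean level was Mrpl12, whose protein forms the flexible stalk and also binds the mitochondrial RNA polymerase, at 58.0 CPM over the 12 livers. The highest of the small subunit was Mrps21, at 40.0 CPM. Mrpl44 (7.17 CPM) and Mrps6 (4.30 CPM) were lowest in their subunits. With 3′-end counting a transcript gives about 1 read whatever its length, but how the counts were adjusted for length is not given in the sources used here, so these levels are not compared between genes by test.

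The comparison of GCV with VEH in p16-3MR females called no member at an adjusted p-value under 0.05 (edgeR quasi-likelihood test), and 0% of the 21755 genes passed. The direction was nevertheless uneven. The log2 fold change was above 0 in 61 of 78 members (78.2%, against 46.1% of all genes), with a median of 0.38 against 0.00 for all genes. The median was 0.39 in the large subunit, where 41 of 49 members were higher, and 0.38 in the small subunit, where 20 of 29 were higher. At an unadjusted p under 0.05 there were 9 members, all higher with GCV (11.5%), beside 7.37% of all genes in either direction, 5.05% higher and 2.32% lower. DESeq2 gave 15 members at that p, beside 8.42% of genes, and also called none. For 24 members (30.8%; 18 large and 6 small) all 3 treated females lay above all 3 controls. The background for that pattern was 5.91% of all genes and 8.82% of the 12409 genes with a mean of at least 10 counts. For 1 member, Mrpl44, all treated females lay below the controls, beside 7.35% of all genes and 9.48% of those with a mean of at least 10 counts.

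**Figure D2:**
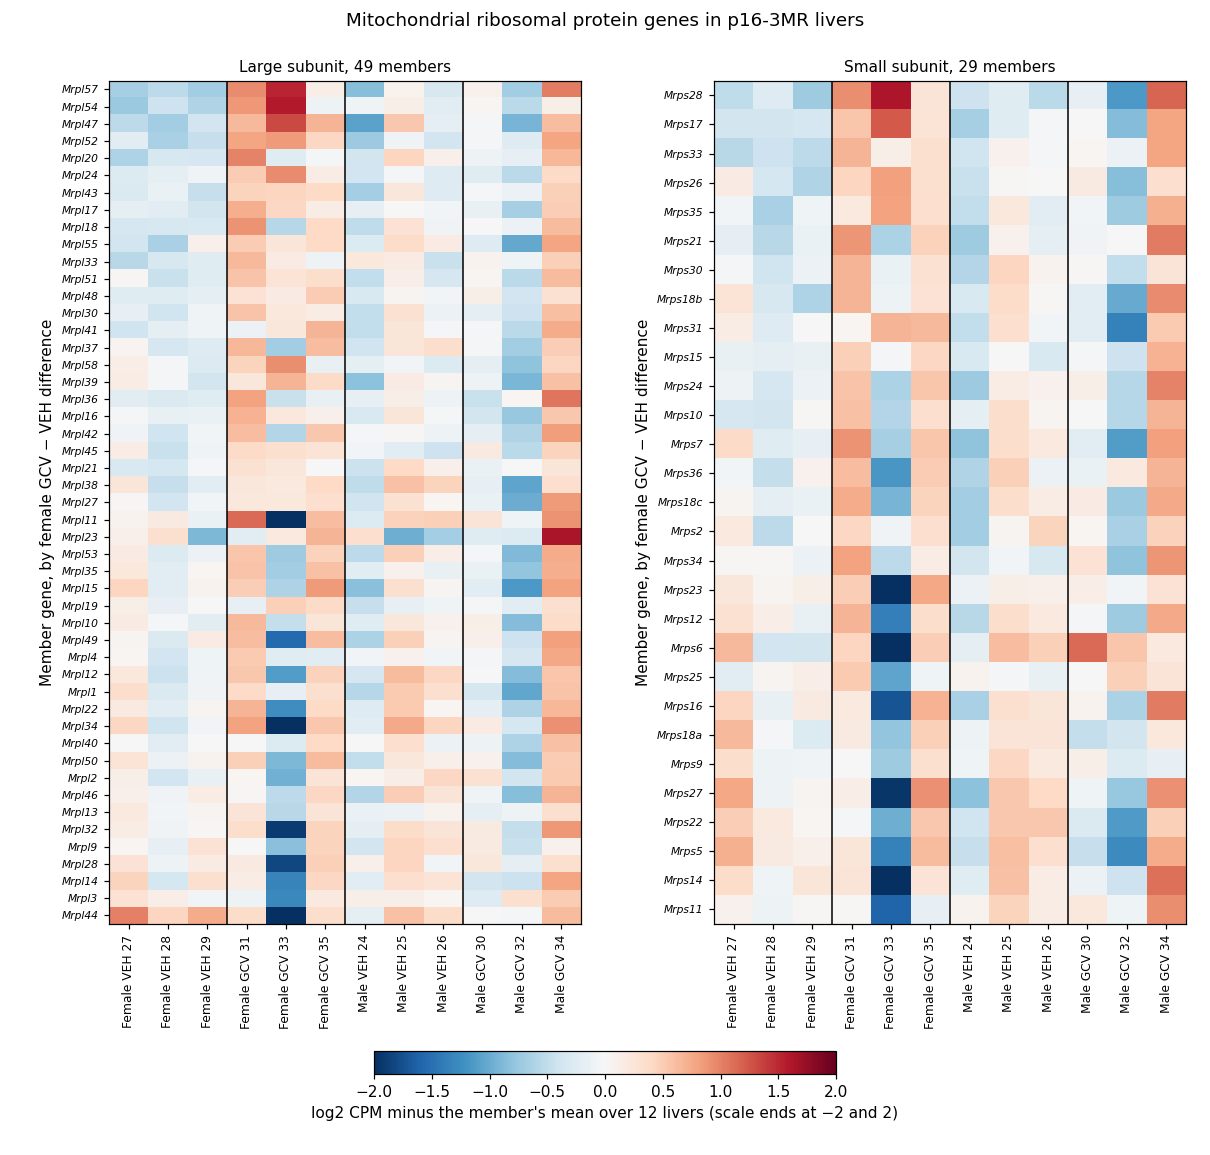
Level of each member in each p16-3MR liver, as log2 CPM minus the member's mean over the 12 livers, for the large (left) and the small subunit (right), ordered by the female GCV minus VEH difference. Red is higher and blue lower; liver 34 lies above the member's mean in 77 of 78 rows and liver 32 in 5, and liver 33 holds the lowest value of 30 members and the highest of 13.

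The 9 members were 6 large and 3 small subunit genes, and for each of them the female groups did not overlap. They were chosen by their p in this same comparison, so the separation is no result of its own. Mrpl54 (ENSMUSG00000034932; mm10 chr10:81264713-81266934, minus strand) encodes a large-subunit protein without a bacterial counterpart. It stood at 24.3, 40.2 and 12.2 CPM in GCV-treated females and at 7.77, 9.84 and 8.56 CPM in the female controls. Its log2 fold change was 1.52 ± 0.41 (SE; edgeR adjusted p = 0.646). Mrpl57 (chr14:57826234-57829296, plus strand), likewise specific to mitochondria, stood at 50.7, 75.7 and 28.8 CPM against 16.5, 18.1 and 16.1 CPM, a log2 fold change of 1.60 ± 0.46 (edgeR adjusted p = 0.646). In both genes liver 33 was the highest and liver 35 the lowest of the treated livers, and the controls were close together.

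Mrpl52 (chr14:54426909-54429756, plus strand), also without a bacterial counterpart, stood at 51.5, 54.1 and 39.6 CPM with GCV and 25.3, 18.8 and 21.5 CPM with VEH. Mrpl43 (chr19:45004829-45006442, minus strand), of the same kind, had the most even treated livers, at 35.1, 34.8 and 34.05 CPM against 21.2, 23.6 and 18.6 CPM. Their log2 fold changes were 1.14 ± 0.35 and 0.71 ± 0.31 (edgeR adjusted p = 0.646 and 0.667).

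Mrpl47 and Mrpl24 encode relatives of bacterial proteins that lie around the exit of the peptide tunnel. Mrpl47 (chr3:32725397-32737605, minus strand) stood at 18.7, 30.1 and 19.1 CPM with GCV and at 8.18, 7.23 and 9.06 CPM with VEH. Mrpl24 (chr3:87919506-87923672, plus strand) stood at 49.5, 67.2 and 38.6 CPM against 28.7, 30.1 and 32.97 CPM. The log2 fold changes were 1.45 ± 0.48 for Mrpl47 and 0.75 ± 0.33 for Mrpl24, both with an edgeR adjusted p of at least 0.646. Scaling to total counts instead of TMM turned Mrpl24 to slightly below 0.

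In the small subunit, Mrps28 (chr3:8802146-8923918, minus strand) stood at 27.4, 44.0 and 17.1 CPM with GCV and at 9.92, 11.9 and 8.56 CPM with VEH. Mrps17 (chr5:129715497-129722556, plus strand), whose bacterial relative binds the subunit's RNA, stood at 37.2, 59.5 and 30.4 CPM against 19.3, 19.4 and 19.9 CPM. Mrps33 (chr6:39801804-39810988, minus strand), specific to mitochondria, stood at 34.5, 23.2 and 26.8 CPM against 14.5, 16.1 and 14.9 CPM. These are log2 fold changes of 1.52 ± 0.52, 1.103 ± 0.41 and 0.90 ± 0.33. Liver 33 was the highest treated liver in 7 of the 9 members, the exceptions being Mrpl43 and Mrps33. Mrpl47, Mrps28, Mrpl24 and Mrpl43 overlap genes on the opposite strand (Mrpl43 overlaps Twnk), and whether reads were assigned by strand is not given in the sources used here.

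**Figure D3:**
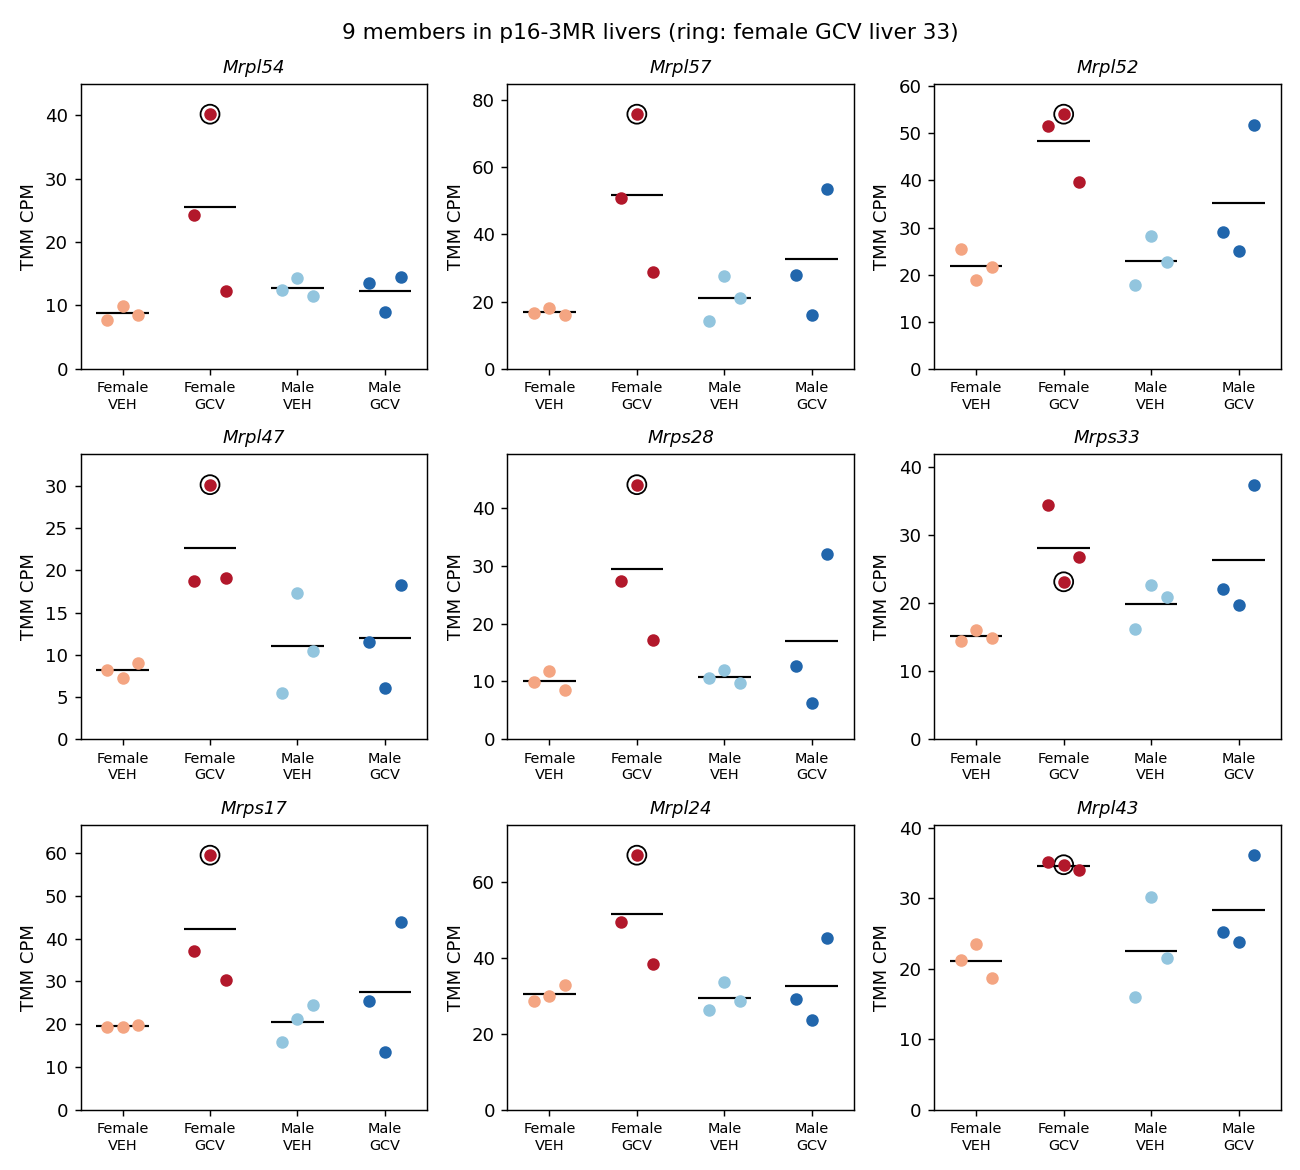
Level of 9 members in each p16-3MR liver (TMM-scaled CPM, linear axis from 0), by sex and treatment; points are livers, bars are group means and a ring marks liver 33. In females, whose values were used to choose these members, every GCV point lies above every VEH point, and in males the groups overlap.

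Most other members were low in that liver. In liver 33, 63 of the 78 members were lower than the mean of the other 2 GCV-treated females and 15 were higher, on the log2 CPM scale, with differences from -4.65 (Mrpl44) to 1.204 (Mrpl54). Transcript length did not order these differences (Spearman's rho = 0.06 over the 78 members, a description across genes of 1 library). Without liver 33, 74 of the 78 members were higher with GCV, beside 43.0% of all genes, and the median log2 fold change was 0.47. Livers 31 and 35 both lay above all 3 controls in 52 members (66.7%), beside 12.9% of all genes, or 17.4% of genes with a mean of at least 10 counts. Of the 9 members, 5 kept an unadjusted p under 0.05 without liver 33 (Mrpl54, Mrpl57, Mrpl52, Mrpl47 and Mrps33), and Mrpl11, Mrpl18, Mrpl20 and Mrps21 joined them, beside 4.59% of all genes at that p, 2.44% higher. The adjusted call stayed at 0 members. Leaving out liver 31 or liver 28 lowered the median to 0.20 and 0.24. With any 1 of the 6 females left out, Mrpl54, Mrpl57, Mrpl52 and Mrpl47 kept an unadjusted p under 0.05 (edgeR), and the other 5 members each lost it at least once. Over these 6 fits the log2 fold change ran from 1.00 to 1.87 for Mrpl54, 1.17 to 1.90 for Mrpl57, 0.98 to 1.27 for Mrpl52 and 1.149 to 1.57 for Mrpl47. It ran from 0.46 to 0.93 for Mrpl24, 0.59 to 0.74 for Mrpl43, 1.07 to 1.81 for Mrps28, 0.73 to 1.30 for Mrps17 and 0.73 to 0.96 for Mrps33.

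The direction in females depends on how libraries are scaled. Total counts include the mitochondrial reads of liver 33, whose part in the shift described next was not tested. Scaling to total counts put the median member at -0.18 and the median of all genes at -0.58. There 20 of 78 members were higher, beside 23.1% of all genes, so the share of members higher was near that of all genes. The number of members at an unadjusted p under 0.05 then went from 9 to 0, beside 4.98% of genes. The distance between the member median and the all-gene median was close to that under TMM. With total-count scaling and liver 33 left out, the median was 0.28 against -0.21 for all genes, and 62 of 78 members were higher, beside 34.1% of all genes. There 6 members, 4 of them among the 9, had an unadjusted p under 0.05, beside 3.16% of genes. TMM scaling without the mitochondrially encoded genes left 7 of the 9 at that p, beside 6.95% of genes, and Mrpl24 and Mrpl43 lost it. As shares of all counts, the members took 0.195% and 0.206% in livers 31 and 35, 0.0400% in liver 33 and 0.145% to 0.171% in the VEH-treated females. Of the counts not on mitochondrially encoded genes, they took 0.232% and 0.265% in livers 31 and 35 and 0.111% in liver 33. The VEH-treated females were at 0.168% to 0.212% on that measure, so liver 33 lay below all of them.

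The start sites of the family were compared with those of other genes, to describe sequence that the members share there. Whether shared letters go with shared changes was not tested. Promoters (250 bases before to 50 after a start, RefSeq, GRCm38.p6) were matched for 69 of the 78 members, including 7 of the 9. The letters CCGGAAG, which ETS-family factors such as GABP recognise, were found on either strand in 36.2% of member promoters and in 12.3% of all 16522 promoters of the table. AAGATGG, the core of the YY1 motif, was found in 18.8% against 6.43%, and the NRF1 core GCATGCGC in 11.6% against 3.76%. GGGCGG (SP1), at 49.3% against 48.0%, and CCAAT, at 39.1% against 38.7%, were about as frequent as in all promoters, and TATAAA was less frequent, at 5.80% against 12.9%. The ETS and YY1 letters occurred together in 4 member promoters and overlapped in none. Members with the ETS letters had a median female log2 fold change of 0.42 (25 members) and those without 0.36 (44 members). Of the 7 matched among the 9, 4 held the ETS letters and 3 did not. These 4 are shown 5′ to 3′ on the gene's strand, with Mrps17 as one of the 3 without; capitals mark CCGGAAG or its reverse complement and, in Mrpl52, AAGATGG.
Mrpl57, chr14:57825989-57826288, plus strand: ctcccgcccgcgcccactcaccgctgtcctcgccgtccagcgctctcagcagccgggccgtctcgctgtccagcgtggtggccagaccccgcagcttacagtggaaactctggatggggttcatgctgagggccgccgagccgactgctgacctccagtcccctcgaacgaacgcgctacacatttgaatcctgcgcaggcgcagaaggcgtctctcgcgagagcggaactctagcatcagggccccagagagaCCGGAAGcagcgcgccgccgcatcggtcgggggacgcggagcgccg
Mrpl52, chr14:54426659-54426958, plus strand: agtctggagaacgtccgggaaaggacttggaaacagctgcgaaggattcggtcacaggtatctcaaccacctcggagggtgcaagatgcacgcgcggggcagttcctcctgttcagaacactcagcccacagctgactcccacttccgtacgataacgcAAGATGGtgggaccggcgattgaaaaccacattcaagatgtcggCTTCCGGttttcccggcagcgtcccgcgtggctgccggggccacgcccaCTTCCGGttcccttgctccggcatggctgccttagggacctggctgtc
Mrpl43, chr19:45006393-45006692, minus strand: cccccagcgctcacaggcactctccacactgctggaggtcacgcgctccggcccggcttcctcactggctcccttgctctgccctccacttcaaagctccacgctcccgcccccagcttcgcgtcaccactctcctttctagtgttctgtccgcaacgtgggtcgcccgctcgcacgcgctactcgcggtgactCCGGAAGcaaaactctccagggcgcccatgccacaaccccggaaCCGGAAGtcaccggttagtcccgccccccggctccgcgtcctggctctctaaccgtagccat
Mrps33, chr6:39810887-39811186, minus strand: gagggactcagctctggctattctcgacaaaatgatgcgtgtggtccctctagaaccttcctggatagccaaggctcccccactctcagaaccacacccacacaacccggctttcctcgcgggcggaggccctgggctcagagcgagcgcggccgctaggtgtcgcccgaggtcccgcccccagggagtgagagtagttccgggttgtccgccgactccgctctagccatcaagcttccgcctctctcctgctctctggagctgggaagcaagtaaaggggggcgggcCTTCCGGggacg
Mrps17, chr5:129715247-129715546, plus strand: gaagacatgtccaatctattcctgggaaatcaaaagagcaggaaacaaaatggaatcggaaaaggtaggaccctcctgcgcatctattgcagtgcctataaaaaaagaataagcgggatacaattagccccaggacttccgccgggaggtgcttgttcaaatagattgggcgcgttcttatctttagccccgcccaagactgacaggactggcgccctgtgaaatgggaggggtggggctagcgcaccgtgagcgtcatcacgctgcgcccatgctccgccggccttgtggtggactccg
Mrpl52 and Mrpl43 each hold the ETS letters at 2 places. The capitals of Mrpl57 and Mrps33 and the later ETS match of Mrpl52 lie after the RefSeq start, and the other capitals lie before it. A match is a run of letters and was not tested as a binding site.

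Member genes were also compact and often paired head to head. Their median coding-transcript length was 1051.5 bases (mature transcript, GENCODE vM21), against 1952.5 for all coding genes. In 18 of 78 members (23.1%, against 6.79% of 21938 coding genes) another coding gene started within 1000 bases upstream on the opposite strand, 17 of them within 210 bases. Mrpl54 starts 26 bases from Apba3 and Mrpl57 49 bases from Ska3. Mrps12, whose protein lies in the decoding centre, starts 172 bases from Sars2, the mitochondrial seryl-tRNA synthetase, and Mrpl32 starts 75 bases from the proteasome gene Psma2. The members lie on 17 chromosomes, with 11 on chromosome 11 and 8 on chromosome 17.

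Members known from disease or ageing work had log2 fold changes of both signs in p16-3MR females. Mrps5, whose reduced expression extends worm lifespan, had a log2 fold change of -0.27 ± 0.54. Mrps16 and Mrps22, mutated in human disorders of mitochondrial translation, had -0.08 ± 0.54 and -0.25 ± 0.46. Mrpl12 had 0.22 ± 0.47 and Mrpl44, mutated in a childhood cardiomyopathy, -0.84 ± 0.63, with 39, 0 and 44 counts in the treated livers against 88, 54 and 78 in the controls. The 3 relatives of the bacterial protein S18, Mrps18a, Mrps18b and Mrps18c, had -0.09 ± 0.40, 0.51 ± 0.46 and 0.38 ± 0.46. None of these 8 genes passed the edgeR test (adjusted p of at least 0.735). The standard errors, with a median of 0.41 over the members, were as large as the median change itself.

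In p16-3MR males the same comparison gave a median log2 fold change of 0.10 (0.04 for all genes). Of the 78 members, 53 (67.9%) were higher, against 52.8% of all genes. By edgeR 0 members passed an adjusted p under 0.05 (0% of all genes). At an unadjusted p under 0.05 there were 0 members by edgeR or DESeq2. Beside this stood 1.91% of all genes by edgeR, 1.1% higher and 0.814% lower, and 418 of 21755 genes by DESeq2. The groups overlapped in every member, beside 3.57% of genes higher and 2.83% lower without overlap. Of the 9 members named for females, 8 had a log2 fold change above 0 in males, from 0.10 ± 0.46 (Mrpl47) to 0.65 ± 0.51 (Mrps28). The exception was Mrpl54, at -0.05 ± 0.40, with 13.5, 8.98 and 14.4 CPM in treated males and 12.4, 14.3 and 11.4 CPM in controls. The largest male value was that of Mrpl23, 1.00 ± 0.58, which rested on liver 34 (27.7 CPM against 7.33 and 7.12 CPM in livers 30 and 32).

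**Figure D4:**
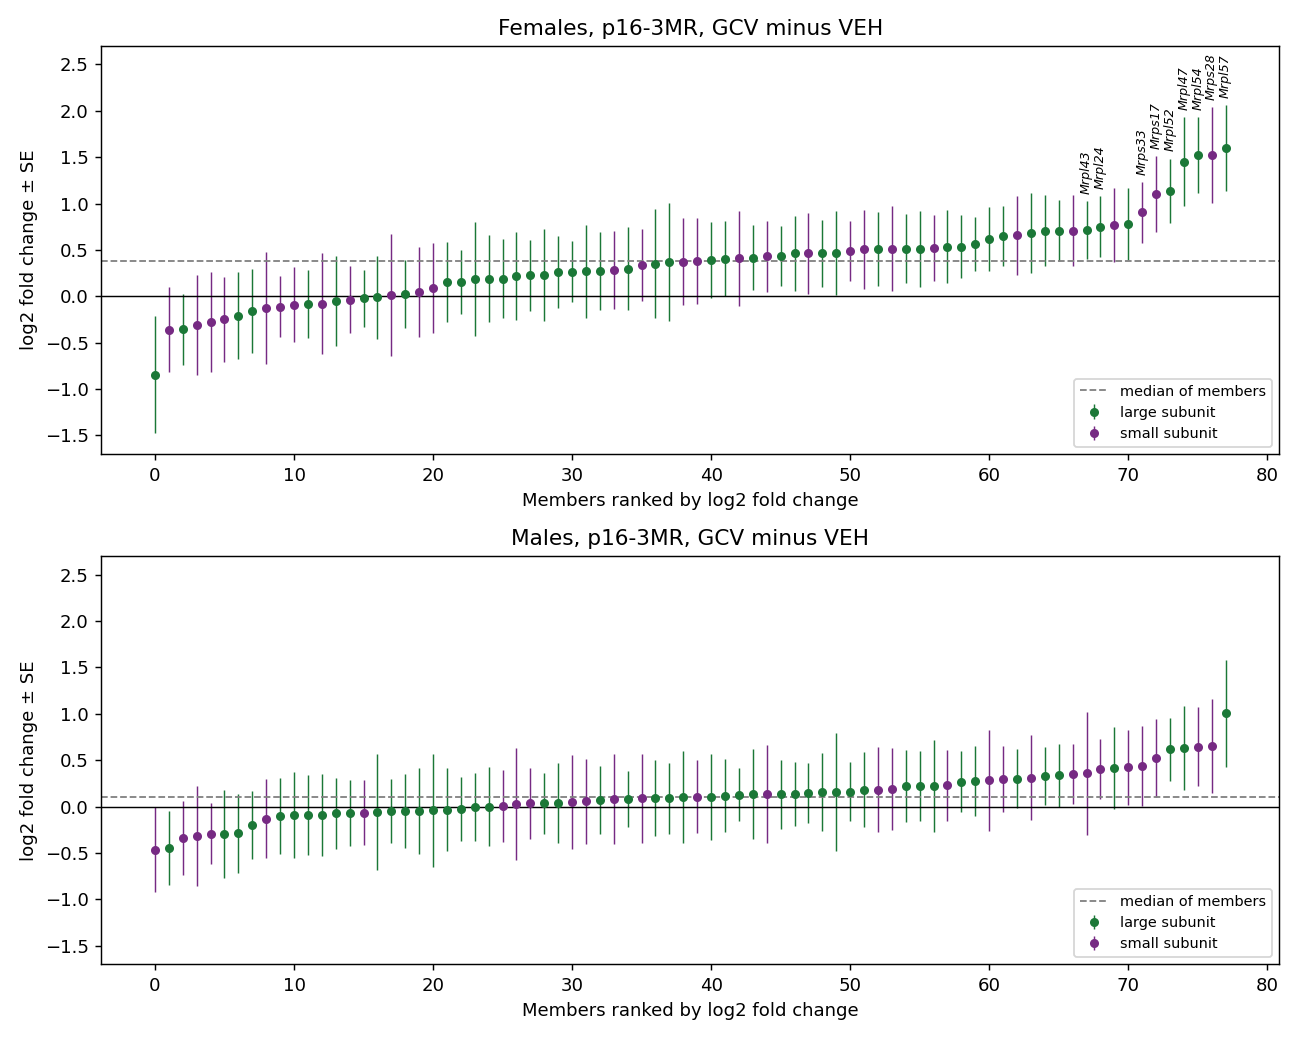
log2 fold change (GCV minus VEH) of each of the 78 members in p16-3MR females (upper) and males (lower), ranked within each sex; bars are standard errors from edgeR, the dashed line is the median of the members (0.38 and 0.10), and names mark members with an unadjusted p under 0.05. In females 61 members lie above 0 and in males 53.

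The male direction was set by single livers. Liver 34 was the highest of the 6 males in 67 members, liver 32 the lowest of the treated males in 69, and liver 24 the lowest of the male controls in 67. The median of the members was -0.24 without liver 34, 0.32 without liver 32, -0.05 without liver 24 and 0.25 without liver 25. Without liver 32, 4 members had an unadjusted p under 0.05 (edgeR; all higher, beside 1.47% of genes), and for 10 members the groups no longer overlapped, all higher, beside 7.6% of genes. Without liver 24, 1 member reached that p, higher, beside 7.76% of genes, and the groups did not overlap in 2 members higher and 5 lower, beside 11.9% and 11.1% of genes. Livers 24 and 32, the 2 with the least hepatocyte RNA, also had the highest Kupffer cell marker sums, 1683 and 2828 CPM over 6 markers, where the other livers had 108 to 932 CPM. Their sinusoidal endothelial marker sums were also the highest (282 and 442 CPM), as were their stellate cell marker sums (470 and 1241 CPM). In bulk tissue fewer cells of a type and less RNA per cell cannot be told apart. The part of these cell types in the member levels was not tested. Without livers 24, 32 and 33 the member median was 0.49 in females and 0.16 in males, with 75 and 62 of 78 members higher. All-gene medians were -0.02 and 0.01, with 44.0% and 50.9% of genes higher. At an unadjusted p under 0.05 (edgeR) there were 24 and 4 members, all higher. Beside them stood 2078 and 1449 of 21755 genes, 923 and 955 of them higher.

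**Figure D5:**
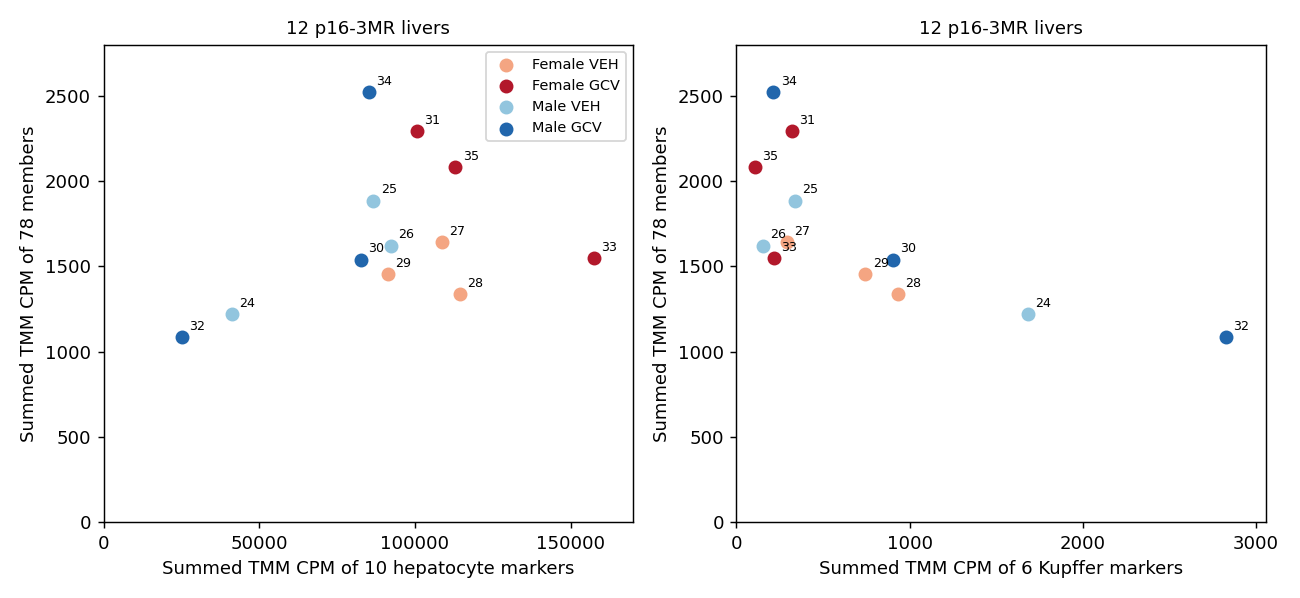
Summed level of the 78 members (TMM-scaled CPM) in each p16-3MR liver against the summed level of 10 hepatocyte markers (left) and 6 Kupffer cell markers (right). Points are livers with their numbers, coloured by sex and treatment; livers 24 and 32 sit lowest in members and in hepatocyte markers and highest in Kupffer markers.

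In females too, marker levels moved beside the members. The 6 stellate markers summed to 163 to 286 CPM in treated livers and 311 to 360 CPM in controls, without overlap, and all 6 had negative log2 fold changes (median -0.71, 1 at an unadjusted p under 0.05). Kupffer markers were at 108 to 322 against 291 to 932 CPM, and all 6 had negative log2 fold changes (median -1.59, 1 at that p). T cell markers were at 2.12 to 10.04 against 6.30 to 31.2 CPM (median log2 fold change -2.18, 3 of 6 at that p, all lower). B cell markers were at 30.9 to 164 against 87.4 to 172 CPM (median -1.43, 2 of 6 at that p, both lower), and neutrophil markers at 5.53 to 205 against 5.496 to 412 CPM (median -1.43, none at that p). Endothelial markers were at 105 to 171 against 137 to 227 CPM (median -0.50, 2 of 6 at that p, both lower). Cholangiocyte markers were at 36.6 to 142 against 34.7 to 97.96 CPM (median 1.00, 1 of 6 at that p, higher), and hepatocyte markers at 100663 to 157416 against 91279 to 114568 CPM (median -0.12, 0 of 10 at that p). Their part in the female difference was not tested.

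Whether the response differed between the sexes was tested as the difference of the 2 differences. No member passed an adjusted p under 0.05 (edgeR; 0% of all genes). The median was 0.26 towards females (-0.04 for all genes), with 62 of 78 members above 0, beside 48.4% of all genes. Total-count scaling turned the direction, with a median of -0.27 (-0.66 for all genes) and 11 of 78 members above 0, beside 24.1% of all genes. Only Mrpl54 had an unadjusted p under 0.05 (1.57 ± 0.57, edgeR adjusted p = 0.976), beside 3.78% of all genes, 1.91% towards females and 1.87% towards males. Mrpl47 followed with 1.35 ± 0.66. Of the 78 members 45 were higher with GCV in both sexes, 16 in females only, 8 in males only and 9 in neither, counting signs without a test. Without liver 32 the median difference between the sexes was 0.00 and without liver 34 it was 0.62; without livers 25, 31, 28, 35 or 30 it was 0.09, 0.11, 0.15, 0.16 and 0.19. The count at an unadjusted p under 0.05 was 8 without liver 34 (beside 6.23% of genes), 2 without liver 24 (8.48%) and 0 under total-count scaling (4.12%).

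Sex itself was compared within each treatment. In VEH-treated p16-3MR livers the median of females minus males was -0.09, against -0.05 for all genes. Of the 78 members 53 were lower in females, and 32.1% were higher, against 43.3% of all genes. By edgeR 0 were called (0.12% of all genes called). Under total-count scaling the median was -0.22 (-0.24 for all genes) and 71 of 78 members were lower. At an unadjusted p under 0.05 there were also 0 by edgeR and DESeq2. Beside them stood 2.74% of genes by edgeR, 1.25% higher and 1.49% lower, and 525 of 21755 genes by DESeq2. Mrpl17, Mrpl36, Mrpl54 and Mrps33 were lower in all 3 females than in all 3 males, beside 5.13% of genes. Without liver 24 that count was 29 of 78, beside 13.7% of genes, and the median was -0.23. It was -0.17 without liver 27, -0.0033 without liver 28 and 0.06 without liver 25. In GCV-treated livers the median was 0.16 (-0.05 for all genes), with 56 of 78 members higher in females, against 45.4% of all genes. Total-count scaling turned this median to -0.49 (-0.87 for all genes), with 1 of 78 higher, beside 14.9% of all genes. By edgeR under TMM, and by DESeq2, 0 members were called (0.0965% of all genes by edgeR). By edgeR Mrpl54 alone had an unadjusted p under 0.05 (1.03 ± 0.40), beside 8.41% of genes, 3.47% higher and 4.95% lower. DESeq2 gave 2 members at that p, beside 1977 of 21755 genes. Mrpl47 was the only member higher in all 3 females than in all 3 males, beside 3.09% of genes. Without liver 33 there were 4 such members (Mrpl37, Mrpl47, Mrps23 and Mrps30), beside 7.85% of genes. Without liver 32 there was 1 higher and there were 2 lower (Mrpl2 and Mrps11), beside 4.84% and 8.03% of genes. The median there was -0.10 without liver 32, 0.52 without liver 34 and 0.32 without liver 33, and 0.03, 0.04 and 0.09 without livers 31, 35 and 30. The edgeR count of 1 member at an unadjusted p under 0.05 became 14 without liver 34, all higher in females (beside 12.5% of genes), and 2 without liver 35 (9.69%). It became 0 without liver 32 (3.9%), without liver 33 (6.9%) and under total-count scaling (15%).

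The WT livers gave much tighter values. The 36 usable members summed to 1447 to 1543 CPM in the 6 females and to 1419 to 1579 CPM in the 6 males, and the group SDs ran from 4.56 to 81.5 CPM. In WT females GCV minus VEH had a median of 0.01 over the members and 20 of 36 above 0, where 49.2% of all genes were. In WT males it had a median of -0.08 and 12 of 36 above 0, where 50.2% of all genes were. No member was called in either sex (edgeR; 0.00791% of genes called in females and 0% in males). At an unadjusted p under 0.05 there was 1 member in each sex, beside 4.56% and 5.06% of genes (2.25% higher and 2.32% lower in females, 2.65% and 2.41% in males). In females this was Mrpl39, at 17.2, 15.5 and 20.4 CPM with GCV and 26.1, 24.1 and 25.2 CPM with VEH (-0.50 ± 0.18). In males it was Mrpl57, at 60.1, 57.4 and 60.1 CPM against 66.5, 68.2 and 82.2 CPM (-0.29 ± 0.12). That Mrpl57 value ran from -0.35 to -0.19 over the fits without 1 liver. With 1 liver left out these counts of 1 ran from 0 to 2. The female count was 0 without GCV replicate 5 and 2 without GCV replicate 4, beside 3.37% and 3.59% of genes. The male count was 0 without GCV replicate 2 (7.48%) and 2 without GCV replicate 3 (4.19%) or VEH replicate 1 (9.68%).

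Of the 9 members that led in p16-3MR females, 5 could be read in WT mice. Their WT female log2 fold changes were -0.15 ± 0.17 (Mrpl54), 0.03 ± 0.12 (Mrpl57), 0.13 ± 0.11 (Mrpl52), -0.13 ± 0.21 (Mrpl47) and -0.06 ± 0.14 (Mrpl43). Mrpl52, for instance, stood at 160, 137 and 160 CPM with GCV and at 132, 146 and 139 CPM with VEH. The WT female groups overlapped in all 5 genes, as they did in most genes: 5.05% of all genes were higher and 4.95% lower without overlap. The p16-3MR values for the same genes are set beside these without a test, since age, treatment length and batch differ with genotype.

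The sex response in WT mice had a median of 0.06, no member called (0.00791% of genes), and 1 member at an unadjusted p under 0.05, beside 4.45% of genes, 1.95% towards females and 2.5% towards males. This was Mrps18c, 0.48 ± 0.19, whose treated females stood at 67.8, 79.4 and 84.6 CPM and treated males at 62.6, 49.6 and 70.2 CPM. The count was 0 without female GCV replicate 6 (beside 3.95% of genes) or male GCV replicate 2 (5.77%), and 2 without female VEH replicate 4 (4.45%) or male VEH replicate 1 (6.98%). Between the sexes under VEH, 5 of 36 WT members had an unadjusted p under 0.05 (13.9%, beside 15.2% of genes, 7.97% higher and 7.25% lower) and none was called, where 3.82% of genes were. Mrpl20 (-0.42 ± 0.15), Mrpl57 (-0.35 ± 0.12), Mrpl53 (-0.35 ± 0.14) and Mrps7 (-0.29 ± 0.14) were lower in females, and Mrpl48 (0.48 ± 0.17) was higher. With 1 liver left out Mrps7 ran from -0.37 to -0.16, and total-count scaling turned its direction. Under GCV there were 4, beside 12.8% of genes, 6.49% higher and 6.31% lower: Mrps18c (0.35 ± 0.13) and Mrpl46 (0.37 ± 0.17) were higher in females, and Mrpl54 (-0.40 ± 0.17) and Mrps7 (-0.32 ± 0.14) were lower. Again none was called, beside 3.24% of genes. Single livers moved these counts too. The VEH count of 5 became 2 without male replicate 3 (beside 11.5% of genes), 3 without female replicate 4 or 5 (14.8% and 11.7%) and 8 without female replicate 6 (13.3%). The GCV count of 4 became 1 without male replicate 1 (11.3%) and 2 without female replicate 4 or 5 (10.9% each).

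The WT sex difference shows how a share and a scaled level can part. Members took 0.161% to 0.172% of all counts in the 6 females and 0.129% to 0.144% in the 6 males, without overlap, while their TMM-scaled sums overlapped. Under total-count scaling 6 of 36 members (16.7%) were called higher in VEH-treated females, beside 14.2% of all genes called, and the member median was 0.26 against 0.36 for all genes. Under GCV 5 members were called higher, beside 10.4% of genes.

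Other parts of the same machinery were followed in p16-3MR females from lists made for this purpose, members left out. For comparison, 7.37% of all genes had an unadjusted p under 0.05. Of 6 further proteins of the mitochondrial ribosome 5 were higher with GCV (median 0.54), and Aurkaip1 (1.17 ± 0.40) and Gadd45gip1 (1.25 ± 0.49) had an unadjusted p under 0.05. Of 30 assembly factors 20 were higher (median 0.24), with Malsu1 (1.43 ± 0.47), which binds the maturing large subunit, and Mrm3 (1.64 ± 0.61), which methylates its RNA, at an unadjusted p under 0.05. The 14 translation factors had a median of -0.04, and none reached that p. The 20 mitochondrial aminoacyl-tRNA synthetases had a median of 0.22, with Lars2 alone below that p (3.45 ± 1.07). The 16 regulators of mitochondrial transcription and biogenesis had a median of 0.12. Among them Gabpa, a subunit of the ETS-family factor GABP, was lower (-1.03 ± 0.43) at an unadjusted p under 0.05.

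The RNAs of the 2 neighbouring systems gave larger values. Cytosolic ribosomal protein genes had a median of 0.63, with 68 of 76 higher and 27 at an unadjusted p under 0.05, and the 21 mitochondrially encoded genes had a median of 2.56, with 8 at that p, where liver 33 contributed its 64.0%. No gene of any of these 7 lists passed an adjusted p under 0.05 in p16-3MR females (edgeR). In p16-3MR males the medians were 0.23, -0.11, -0.24, -0.18, -0.27, 0.47 and -0.24 in the same order of lists, and no gene of them was called.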

How the data were processed

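Liver RNA of 24 mice was measured, 3 per sex, genotype and treatment. Per the labels and methods, the authors trimmed Smart-3SEQ reads with Trim Galore 0.6.10, quantified them with Salmon 1.10.3 (build mm10 in the submitters' processing notes), summed to genes and left out those under 3 reads. The authors deposited these as estimated counts (expected counts), rounded to whole numbers and not scaled. Depth limits apply to counting error only. Symbols and coordinates came from GENCODE vM21 and promoters from RefSeq GRCm38.p6. Of the 21755 identifiers 21698 had a symbol, and 10496 of 12643 WT labels fitted 1 symbol.

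Counts were tested with edgeR 4.0.16 in R 4.3.3 (TMM, a mean for each of the 4 groups of a genotype fitted together, quasi-likelihood test, Benjamini-Hochberg adjustment over all genes, threshold 0.05), after the code was tested on simulated data. The study's methods used DESeq2, which was run as an alternative (version 1.42.0). Log2 CPM used a prior count of 2. Replicates are separate mice as labelled. The 5 contrasts were GCV minus VEH in each sex, their difference, and females minus males under each treatment. Other alternatives were DESeq2 size factors, leaving out mitochondrially encoded genes, a low-count filter, single-sex fits, a replicate block and leaving out each liver; total-count scaling, the joint removal of livers and the overlap counts without single livers were added after seeing the data.

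Members and gene lists were chosen with earlier results of these data known. Genes were named by a rule: called members (up to 10), the 5 per subunit with the smallest unadjusted p and a mean of at least 10 counts, 14 members fixed for what is known of them, the highest and lowest member per subunit, and non-overlapping members as counts with up to 5 named. Mrpl20 in p16-3MR livers, Mrpl32 and the members with the largest response difference were named after their values were seen.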

Additional observations from a re-analysis of the deposited data

How the results depend on the processing

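No member was called in any of the 10 comparisons under DESeq2, DESeq2 size factors in edgeR, the low-count filter, the fit without mitochondrially encoded genes or with any 1 of the compared livers left out, nor in the 4 GCV minus VEH comparisons fitted on 1 sex. In p16-3MR females DESeq2 gave 15 members at an unadjusted p under 0.05, beside 8.42% of genes, and its lowest member adjusted p was 0.05001, just above the threshold, against 0.646 by edgeR; it called 90 genes in all where edgeR called 0. In the other comparisons DESeq2 and edgeR called 5 and 0 (males), 3 and 0 (difference), 102 and 26 (sex, VEH) and 131 and 21 (sex, GCV) genes in p16-3MR livers, and 17 and 1 in WT females. Total-count scaling moved the medians to -0.18 (females, GCV minus VEH), -0.27 (difference of responses) and -0.49 (females minus males under GCV) in p16-3MR livers, with all-gene medians of -0.58, -0.66 and -0.87, to -0.22 for the sexes under VEH, with -0.24 for all genes, and to 0.26 and 0.32 for females minus males in WT livers under VEH and GCV, with all-gene medians of 0.36 and 0.31. Relative to the median of all genes, members were higher in the first 3 and within 0.1 of it in the others. It called 6 and 5 WT members in those sex comparisons, where TMM called 0. Mrpl24 turned to -0.035 in p16-3MR females and Mrps7 to 0.052 in the WT VEH sex comparison under that scaling, and Mrpl48 was called there (0.81). The cause of these shifts beyond the scaling itself was not tested.

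With each liver left out in turn, the p16-3MR medians ranged from 0.20 to 0.47 (females), -0.24 to 0.32 (males), 0.00 to 0.62 (difference), -0.23 to 0.06 (sex under VEH) and -0.10 to 0.52 (sex under GCV). Of these 5, the first and the third kept their sign. In WT livers they ranged from -0.01 to 0.05, -0.09 to -0.06, 0.01 to 0.10, -0.11 to -0.08 and -0.02 to 0.02.

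WT groups share replicate numbers. Deviations of same-numbered livers of a sex had correlations of -0.02, -0.03 and 0.03 in females and 0.11, 0.16 and -0.02 in males. For differently numbered livers they ran from -0.04 to 0.05 in females and from -0.19 to 0.08 in males. The highest male values, 0.16 and 0.11, were of same-numbered livers. With 3 livers per group these values cannot decide whether the numbers pair them. With the replicate block the member medians were 0.01 in females and -0.08 in males, 0 members were called, and the calls over all genes went from 1 to 106 and from 0 to 68. The p16-3MR groups share no numbers. With a biological coefficient of variation of 55.8% in p16-3MR livers, against 16.6% in WT livers, and 3 livers per group, changes of the size of the member medians could not be told from 0 gene by gene.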
